A study of Neurospora crassa OR74A with 13 samples.

Results

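Cellobiose, the disaccharide of glucose that cellulases release from cellulose, was compared with the absence of any carbon source in the filamentous fungus Neurospora crassa. The comparison took the 4 wild type libraries on these media out of 13 in the series: 1 library from cellobiose and 3 from no carbon, which the labels give as biological triplicates. All came from strain FGSC 2489, the wild type reference per the labels. Mycelia were pregrown on sucrose for 16 h, washed, and moved for 4 h to medium with cellobiose or with none, so both groups share the sucrose history and the wash. The samples were chosen by these labels, not by any measured value, and the question is how growth on a usable disaccharide differs from starvation. The 3 Avicel (crystalline cellulose) and 3 sucrose libraries of the same strain, treated alike, are given beside the values as reference levels.

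N. crassa takes up cellobiose through the cellodextrin transporters CDT-1 and CDT-2 and cleaves it to glucose with beta-glucosidases inside and outside the cell. Glucose feeds glycolysis and, through the repressor CRE-1, holds down genes for less favoured carbon sources. Cellodextrins are also the signal by which the fungus recognises cellulose, so cellobiose can act as food and as inducer. Without carbon, mycelium recycles its own material through vacuoles and, where it meets air, forms conidia (asexual spores).

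Values are FPKM, fragments scaled by the authors to transcript length and library size, and tests used log2(FPKM + 1). A gene was called when the limma adjusted p was under 0.05, in a fit to the 10 wild type libraries with one mean per medium. With 1 cellobiose library, the test assumes that this library varies as the replicated media do, and no replicate check exists on the cellobiose side. The no carbon libraries belong, with those on Avicel and sucrose, to an earlier deposit and the cellobiose library to a later one, so deposit and carbon source cannot be told apart. As a gauge, the mutant strain TBGK, which lacks beta-glucosidase genes, on sucrose, 1 library of the later deposit, differed from wild type on sucrose by a median of 0.344 log2 units over 8845 genes, and 13.1% of them differed at least 2-fold. Cellobiose differed from no carbon by a median of 0.797 log2 units, with 42.2% of genes at least 2-fold apart, from Avicel by 0.661 and from wild type sucrose by 0.571. The cellobiose library was nearer to TBGK on sucrose, at a median of 0.355, than to any wild type medium. Depth was 2251, 5929 and 6025 aligned megabases in no carbon replicates 1, 2 and 3, and the depth of the cellobiose library is unknown. That library listed 1335 genes at 0 against 1002, 764 and 718 on no carbon, and its FPKM summed to 5017876 against 3555456, 3654968 and 3618199. No carbon replicate 2 stood apart for some genes, by 10-fold or more in the case of acu-6, and is named where this touches a result.

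Of 8845 genes tested, 985 rose on cellobiose and 1306 fell, which makes 11.1% called higher, 14.8% called lower and 25.9% called in all. These shares are the background for the counts below. Calls with a difference of at least 2-fold numbered 883 higher (9.98%) and 1199 lower (13.6%). The cellobiose value lay outside the range of the no carbon libraries in 81.8% of tested genes, so lying above or below all 3 is by itself common, and 40.4% had an unadjusted p under 0.05. The median log2 difference over all tested genes was -0.22, and quantile normalization moved it to -0.09 and the split of calls to 1103 higher and 1066 lower, so differences are read against that median and list medians are given under both scalings where the sign turns. The size of the call set depended on single libraries: without no carbon replicate 3 it fell to 628 higher and 739 lower, without Avicel replicate 1, a shallow library, 1972 fell, and without it and sucrose replicate 1 together 1796 rose and 2755 fell.

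**Figure D1:**
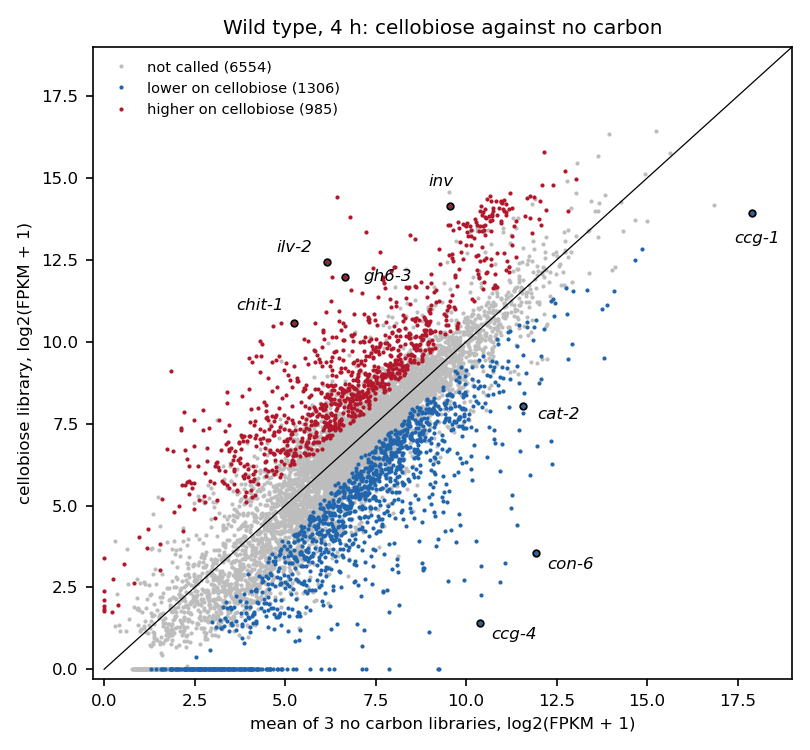
Each point is one of 8845 tested genes, with the mean of the 3 no carbon libraries on the horizontal axis and the cellobiose library on the vertical axis, both as log2(FPKM + 1), and the diagonal marks equal levels. The 985 genes called higher lie above it in red and the 1306 called lower lie below it in blue, with con-6 and ccg-4 among the farthest below.

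Genes for splitting cellobiose moved in opposite directions on the sugar. Of 11 listed genes for cellobiose use, 3 beta-glucosidase genes rose, 2 other genes fell and 6 were not called, with a list median of 0.49 log2 units. The beta-glucosidase gene gh1-1 (NCU00130, supercont10.3, 2730965 to 2732948) had 2632 FPKM on cellobiose and 158, 204 and 205 in no carbon replicates 1, 2 and 3, a log2 difference of 3.80 (SE 0.59, adjusted p = 0.00326). The cellobiose value was 13.9 times the no carbon mean, yet the Avicel libraries stood far higher, at 42400.3 ± 8684 FPKM (mean ± SD, n = 3). For gh3-6, another beta-glucosidase family gene, the values were 81.5 FPKM on cellobiose and 5.49, 6.06 and 6.79 without carbon, with a log2 difference of 3.54 (SE 0.34, adjusted p = 0.000501). Neither gene's cellobiose value came near the range of its no carbon libraries. The gene gh3-3 had 3254 FPKM on cellobiose against 463, 262 and 452 and rose by 3.10 log2 units (SE 0.83, adjusted p = 0.029), and this call was lost without no carbon replicate 1, 2 or 3, without the filter on low values or under quantile normalization (adjusted p up to 0.0629).

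Transporter genes for cellobiose stood higher without passing the test. The transporter gene cdt-1 (NCU00801, supercont10.1, 7121828 to 7124065) had 1804 FPKM on cellobiose and 259.7, 733 and 319.9 in the no carbon libraries, a log2 difference of 2.19 (SE 0.81, adjusted p = 0.0788). Its partner cdt-2 had 2126 FPKM against 506, 464 and 515, a log2 difference of 2.10 (SE 0.92, adjusted p = 0.123). In both genes the cellobiose value lay above all 3 no carbon values and above the sucrose means of 52.9 and 22.3 FPKM, but below every Avicel library. The cdt-2 difference passed without sucrose replicate 2, in a fit to the 4 compared libraries alone, with a pseudocount of 10 or without the 2 shallowest libraries (adjusted p down to 0.00956) and that of cdt-1 without Avicel replicate 1, under quantile normalization or without the 2 shallowest libraries (adjusted p down to 0.0224).

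A different pair of cellobiose-use genes fell. The extracellular beta-glucosidase gene gh3-4 (NCU04952, supercont10.4, 846340 to 849048) had 1.36 FPKM on cellobiose and 61.1, 67.6 and 98.2 without carbon, a log2 difference of -4.99 (SE 1.12, adjusted p = 0.0146). That call was lost with a pseudocount of 10 (adjusted p = 0.0659). The cellobiose dehydrogenase gene cdh-2 was listed at 0 on cellobiose and at 21.9, 13.01 and 34.1 FPKM on no carbon (adjusted p = 0.000903). Cellobiose dehydrogenases oxidise the sugar outside the cell, and the other member, cdh-1, had 23.2 FPKM against 23.0, 17.6 and 23.1 with no call (adjusted p = 0.839). On sucrose gh3-4 and cdh-2 were as low as on cellobiose, where gh3-4 had 0, 0.983 and 0 FPKM and cdh-2 was listed at 0 in all 3 libraries.

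**Figure D2:**
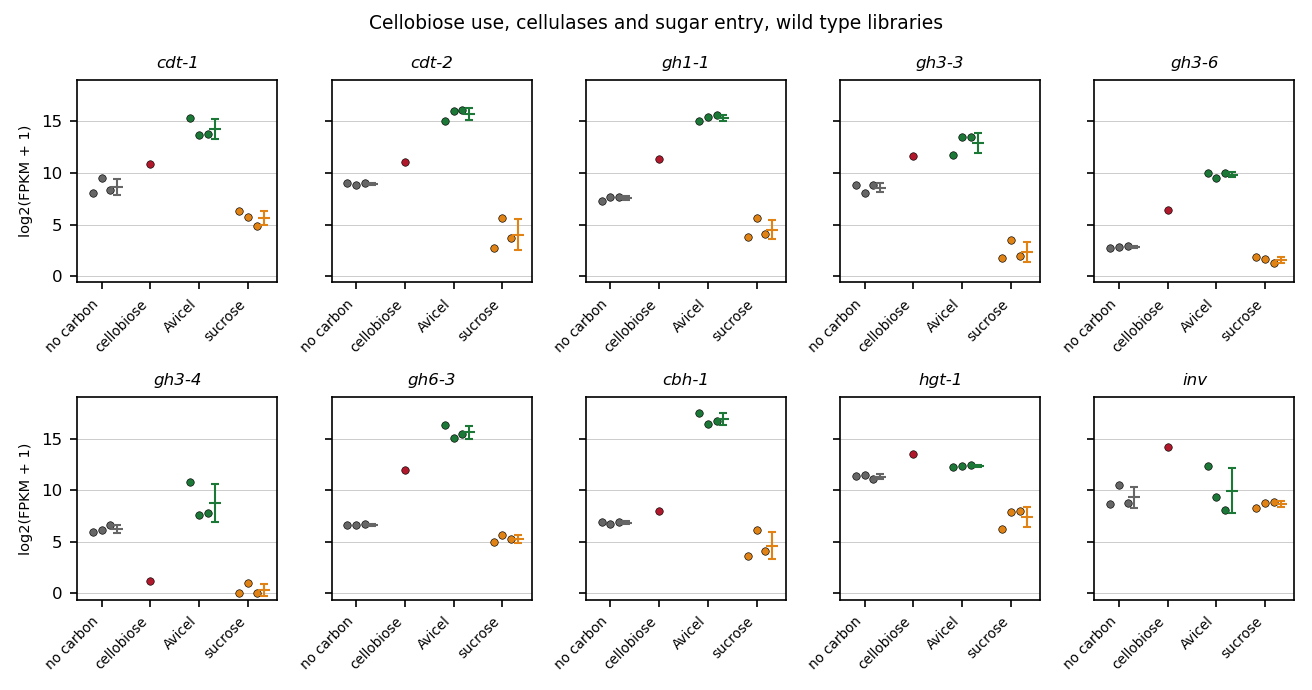
Levels of 10 genes for cellobiose use, cellulose cleavage and sugar entry are shown per wild type library as log2(FPKM + 1), with the mean and SD of each triplicate beside its points and a single point for cellobiose. The cellobiose point lies between no carbon and Avicel for cdt-1, cdt-2, gh1-1, gh3-3 and gh3-6, near the sucrose points for gh3-4, and above all other libraries for hgt-1 and inv.

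Genes for the breakdown of cellulose itself were low on both media, with one exception. Of 8 cellulase genes, 1 rose, none fell and 7 were not called, and the list median was 0.32 log2 units. Without Avicel replicate 1, 2 of them fell. The gene that rose was gh6-3 (NCU07190, supercont10.5, 6293622 to 6294895) of cellulase family GH6, which had 3989 FPKM on cellobiose and 96.3, 95.0 and 107 on no carbon, a log2 difference of 5.31 (SE 0.45, adjusted p = 0.000399). It reached 40.1 times its no carbon mean and kept its call under every alternative tried. The major cellobiohydrolase gene cbh-1 had 246 FPKM on cellobiose and 116, 103 and 123 without carbon (log2 difference 1.10, SE 0.84, adjusted p = 0.355), while the Avicel mean was 125864 ± 53336 FPKM. A second cellobiohydrolase gene, gh6-2, had 131 against 96.6, 98.3 and 120.2 FPKM and the endoglucanase gene gh5-1 25.3 against 10.96, 12.8 and 16.3, neither called. On cellobiose all 3 stood far below their Avicel level.

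Of 11 genes for lytic polysaccharide monooxygenases, which cleave cellulose by oxidation, 3 rose and 1 fell, with a median of 0.81, and without Avicel replicate 1 3 fell. The member gh61-3 had 328 FPKM on cellobiose and 31.9, 33.2 and 29.8 on no carbon (log2 difference 3.34, SE 0.37, adjusted p = 0.000863). For gh61-9 the values were 834 and 86.6, 70.7 and 93.9 FPKM (log2 difference 3.31, SE 0.70, adjusted p = 0.0116), and here cellobiose also exceeded the Avicel mean of 249. The third, gh61-2, rose from 17.4, 14.3 and 12.5 to 68.2 FPKM (adjusted p = 0.0162), and gh61-8 was listed at 0 on cellobiose against 5.33, 8.60 and 8.69 (adjusted p = 0.00318). None of 6 xylanase genes was called by limma (1 had an unadjusted p under 0.05), their log2 differences running from -2.48 to 1.65 with a median of -0.80, or 0.07 under quantile normalization.

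Of 7 listed regulators of carbon use, vib-1 rose and acu-15 fell, while the activator genes of the cellulases were not called. The gene clr-2, whose product drives cellulase transcription, had 10.2 FPKM on cellobiose against 9.18, 19.7 and 6.63 on no carbon (log2 difference -0.07, SE 0.50, adjusted p = 0.929) and 1311 ± 200.2 on Avicel. Its partner clr-1 had 156 against 172, 178 and 221 FPKM and the xylanase regulator xlr-1 193 against 331, 324 and 347, neither called. The gene of the glucose repressor, cre-1 (NCU08807, supercont10.4, 5176496 to 5178846), had 1712 FPKM on cellobiose and 189.8, 424 and 121 on no carbon, a log2 difference of 2.997 (SE 0.97, adjusted p = 0.0515). That value lay above all other wild type libraries, missed the threshold narrowly and passed it without Avicel replicate 1 or no carbon replicate 2 or under 4 other alternatives (adjusted p down to 0.00713). The acetate regulator gene acu-15 fell from 1388, 1521 and 1379 to 398 FPKM (log2 difference -1.84, SE 0.30, adjusted p = 0.004). The call on vib-1, a regulator linked to carbon and nitrogen sensing, with 659 against 183, 373 and 233 FPKM (adjusted p = 0.0322), was lost without Avicel replicate 2 or no carbon replicate 1 or 3, in a fit to the 4 compared libraries alone or under quantile normalization (adjusted p up to 0.079).

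Other carbohydrate genes moved in both directions. The invertase gene inv (NCU04265, supercont10.5, 5424522 to 5426869), which splits sucrose, had 18250.1 FPKM on cellobiose and 414, 1401 and 432 on no carbon, a log2 difference of 4.85 (SE 1.38, adjusted p = 0.0343). Its mean on sucrose itself was only 402 FPKM, so cellobiose held the highest level of the 10 wild type libraries. The glucoamylase gene gla-1, for the release of glucose from starch, had 6072 FPKM on cellobiose and 1173, 641 and 544 on no carbon (log2 difference 3.03, SE 0.77, adjusted p = 0.024). The call on inv was lost without no carbon replicate 1 or 3 or sucrose replicate 2 or 3 or without the filter on low values (adjusted p up to 0.0837), and that on gla-1 without no carbon replicate 2 or 3 or under quantile normalization (adjusted p up to 0.064). In the alpha-glucanase families as a whole, 1 of 11 genes rose and 5 fell, against 11.1% and 14.8% of all genes, with a median of -0.28 that turned to 0.16 under quantile normalization. Among those that fell, gh31-1 had 37.1 FPKM on cellobiose against 698, 303 and 501 (log2 difference -3.64, SE 0.46, adjusted p = 0.00133) and gla-2 204 against 726, 591 and 768 (log2 difference -1.75, SE 0.20, adjusted p = 0.00104). The polygalacturonase family gene gh28-2 fell from 684, 337 and 675 to 24.8 FPKM (log2 difference -4.39, SE 0.42, adjusted p = 0.000511) and its relative gh28-1 rose from 18.1, 17.3 and 13.7 to 61.7 (log2 difference 1.86, SE 0.31, adjusted p = 0.00425). Both gh28-1 and gh28-2 overlap a neighbouring gene, and the library protocol is not stated to keep strand.

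A hexose transporter gene rose and a glucose sensor gene fell. The high-affinity glucose transporter gene hgt-1 (NCU10021, supercont10.7, 2947616 to 2949846) had 11960.0 FPKM on cellobiose and 2623, 2929.8 and 2132 on no carbon (log2 difference 2.23, SE 0.58, adjusted p = 0.026), against only 190.3 ± 98.3 on sucrose. The hgt-1 call was lost without no carbon replicate 1 or 3 or under quantile normalization (adjusted p up to 0.147). The gene sor-4, also known as rco-3 and encoding a glucose sensor, had 73.9 FPKM on cellobiose and 359, 557 and 349 on no carbon (log2 difference -2.46, SE 0.49, adjusted p = 0.00898). The sor-4 level on cellobiose was close to that on sucrose, 72.7 ± 29.7 FPKM. The xylose reductase gene xr rose from 70.6, 99.6 and 106 to 590.4 FPKM (log2 difference 2.69, SE 0.73, adjusted p = 0.0302), a call lost without no carbon replicate 1, 2 or 3 or without the filter on low values (adjusted p up to 0.0716).

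Several genes of glycolysis and of the entry of pyruvate into the tricarboxylic acid (TCA) cycle rose on cellobiose. Of 11 genes for glycolysis and fermentation 6 rose and none fell, with a median of 2.02 log2 units. The glycolytic gene emp-6 had 5018 FPKM on cellobiose and 211, 218 and 335 on no carbon (log2 difference 4.33, SE 0.71, adjusted p = 0.00418). The pyruvate kinase gene ace-8 had 6243 against 1169, 1005 and 1517 FPKM (log2 difference 2.36, SE 0.38, adjusted p = 0.00367), and the phosphofructokinase gene emp-3 1973 against 387, 433 and 681 (log2 difference 2.02, SE 0.36, adjusted p = 0.00573). On cellobiose these 3 genes stood at 5018, 6243 and 1973 FPKM, somewhat below their sucrose means of 5867, 9755 and 2279. Phosphoglycerate kinase (pgk) with 9545 against 2246, 2207 and 2924 FPKM (adjusted p = 0.00541) and enolase (emp-7) with 28242 against 5759.7, 4053 and 6271 (adjusted p = 0.0136) also rose, but both calls were lost under quantile normalization (adjusted p = 0.12 and 0.205). The call on the aldolase gene fba, 16147 against 6740.2, 7114 and 7836 FPKM (adjusted p = 0.0454), was lost without any one of 7 of the 9 triplicate libraries or under 4 other alternatives (adjusted p up to 0.835), and its log2 difference of 1.16 turned to -0.19 under quantile normalization. The glycolytic gene emp-1 was not called and had 2179 against 2269.9, 1904 and 2352 FPKM, summed over transcripts in the triplicate libraries. Its log2 difference of 0.01 depended on that sum, becoming 0.88 with a call when the highest transcript was taken (adjusted p = 0.0146), and was -0.54 under quantile normalization (adjusted p = 0.243).

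The pyruvate decarboxylase gene cfp, which opens the path to ethanol, showed the largest difference of the glycolysis list but no call. It had 24434 FPKM on cellobiose and 141, 1914 and 151 in no carbon replicates 1, 2 and 3, a log2 difference of 6.14 (SE 2.69, adjusted p = 0.124). The no carbon libraries spread more than 10-fold among themselves, with replicate 2 far above the others, and the difference passed without Avicel replicate 1, in a fit to the 4 compared libraries alone or without the 2 shallowest libraries (adjusted p down to 0.0208). The glyceraldehyde phosphate dehydrogenase gene gpd-1, 52699.6 against 10172, 15511 and 12450.0 FPKM, was also not called (log2 difference 2.07, SE 0.87, adjusted p = 0.112) and passed without Avicel replicate 1, in a fit to the 4 compared libraries alone or without the 2 shallowest libraries (adjusted p down to 0.00226). On cellobiose gpd-1 ranked among the 5 highest transcripts of the library.

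All 3 listed pyruvate dehydrogenase complex genes rose. Their names are ace-2, ace-3 and ace-4, and the complex turns pyruvate into acetyl-CoA. The ace-2 gene (NCU06482, supercont10.3, 1563324 to 1565833) had 2943 FPKM on cellobiose and 549, 562 and 536 on no carbon, a log2 difference of 2.42 (SE 0.19, adjusted p = 0.000319). For ace-4 the values were 2653 and 541, 428 and 485 FPKM (log2 difference 2.46, SE 0.23, adjusted p = 0.000437), and for ace-3, which overlaps a neighbour, 2379 and 280.4, 282 and 243 (log2 difference 3.15, SE 0.36, adjusted p = 0.000914). The citrate synthase gene cit-1, for the first step of the cycle, rose from 1080.1, 922 and 902 to 5959 FPKM (log2 difference 2.63, SE 0.35, adjusted p = 0.00161). Over the 20 genes of the pyruvate dehydrogenase and TCA list 7 rose and 1 fell, and the median of 0.28 became -0.21 under quantile normalization. The fall of tca-16, from 5296, 5100.0 and 5909 to 2523 FPKM, was lost without any one of 5 of the 9 triplicate libraries or with the highest transcript taken per gene (adjusted p up to 0.0782).

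Among 4 genes for storage sugars the glycogenin gene gnn rose from 697, 565 and 873 to 2009 FPKM (log2 difference 1.52, SE 0.32, adjusted p = 0.0117), and the trehalase gene tre-1, 72.4 against 336, 348 and 419, was not called (adjusted p = 0.0613) but passed as lower without Avicel replicate 1 or sucrose replicate 1 or under 4 other alternatives (adjusted p down to 0.000319). The glyoxylate and gluconeogenesis list, by which fungi build sugar from acetate and fat, did not move as one. The 2 members that rose handle acetyl-CoA, acu-5 (acetyl-CoA synthetase) from 363, 304 and 246 to 1581 FPKM (log2 difference 2.39, SE 0.30, adjusted p = 0.00133) and acu-8 (acetyl-CoA hydrolase) from 185, 154 and 201 to 907 (log2 difference 2.34, SE 0.34, adjusted p = 0.00236). The isocitrate lyase gene acu-3, specific to the glyoxylate cycle, had 451 FPKM on cellobiose and 1874, 836 and 808 on no carbon (log2 difference -1.26, SE 0.54, adjusted p = 0.117). Fructose bisphosphatase, encoded by fbp-1 and specific to gluconeogenesis, had 212 against 867, 1348 and 522 FPKM (log2 difference -1.99, SE 0.74, adjusted p = 0.0799). Neither acu-3 nor fbp-1 was called, although both lay below all 3 no carbon libraries, and fbp-1 passed without sucrose replicate 1 or without the 2 shallowest libraries (adjusted p down to 0.0243). The phosphoenolpyruvate carboxykinase gene acu-6 had 1161, 12642 and 599.8 FPKM in no carbon replicates 1, 2 and 3, and its cellobiose value of 1485 fell inside that range.

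Amino acid biosynthesis was the broadest group that rose. Of 62 listed genes, 44 rose, none fell and 18 were not called, against a background of 11.1% called higher, and the median difference was 2.27 log2 units against -0.22 over all genes. With single libraries left out the number that rose ran from 43 to 50. The largest difference was that of ilv-2 (NCU03608, supercont10.5, 1828478 to 1830575), a gene of isoleucine and valine synthesis, with 5529 FPKM on cellobiose and 69.8, 63.8 and 79.4 on no carbon. Its log2 difference was 6.27 (SE 0.56, adjusted p = 0.000435), and the cellobiose level was 77.9 times the no carbon mean. The sucrose libraries were higher still, at 15993 ± 3487 FPKM, and the Avicel libraries low, at 132 ± 88.9. The cellobiose value therefore lay between starvation and sucrose, much nearer to sucrose on the log scale.

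Members of many amino acid pathways rose. In the arginine pathway arg-3, for carbamoyl phosphate, had 665 FPKM on cellobiose and 13.5, 11.3 and 22.9 on no carbon (log2 difference 5.36, SE 0.66, adjusted p = 0.00125), and arg-5 had 377 against 20.7, 11.8 and 12.9 (log2 difference 4.59, SE 0.49, adjusted p = 0.000769). The lysine gene lys-3 had 350.0 FPKM against 6.86, 11.5 and 10.3 (log2 difference 5.08, SE 0.61, adjusted p = 0.00109). The leucine gene leu-2 rose from 43.0, 13.7 and 14.2 to 666 FPKM (log2 difference 4.96, SE 0.59, adjusted p = 0.00109). In each of these 4 genes the highest no carbon library lay more than 10-fold below the cellobiose library. The sulphur amino acid genes cys-11, with 1964 against 69.2, 96.4 and 101.4 FPKM (log2 difference 4.47, SE 0.65, adjusted p = 0.00257), and met-8, with 18703 against 2030.3, 1792 and 2729 (log2 difference 3.12, SE 0.52, adjusted p = 0.00426), rose as well. For aromatic amino acids aro-3 rose from 33.3, 33.7 and 27.9 to 651 FPKM (log2 difference 4.33, SE 0.32, adjusted p = 0.000273) and aro-1, the multi-step arom gene, from 27.2, 38.1 and 44.8 to 616 (log2 difference 4.06, SE 0.37, adjusted p = 0.000437). The NADP glutamate dehydrogenase gene am, through which ammonium enters amino acids, had 10785 FPKM against 1787, 1583 and 1613 (log2 difference 2.70, SE 0.31, adjusted p = 0.00095).

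The members that were not called included the regulator of this system. The cross-pathway control gene cpc-1, whose product activates amino acid genes, had 6892 FPKM on cellobiose and 5524, 3654 and 4733 on no carbon (log2 difference 0.59, SE 0.40, adjusted p = 0.302). The glutamine synthetase gene gln-2 had 4042 against 3147, 6931 and 3550.0 FPKM (adjusted p = 0.932), and asn-2, for asparagine, 34.4 against 99.1, 59.7 and 106 (log2 difference -1.29, SE 0.52, adjusted p = 0.101). The asn-2 value on cellobiose lay below all 3 no carbon libraries, unlike most of the list. The gene bodies of ilv-2 and arg-3 overlap a neighbour by 35 and 103 bases, and reads there could not be assigned by strand.

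**Figure D3:**
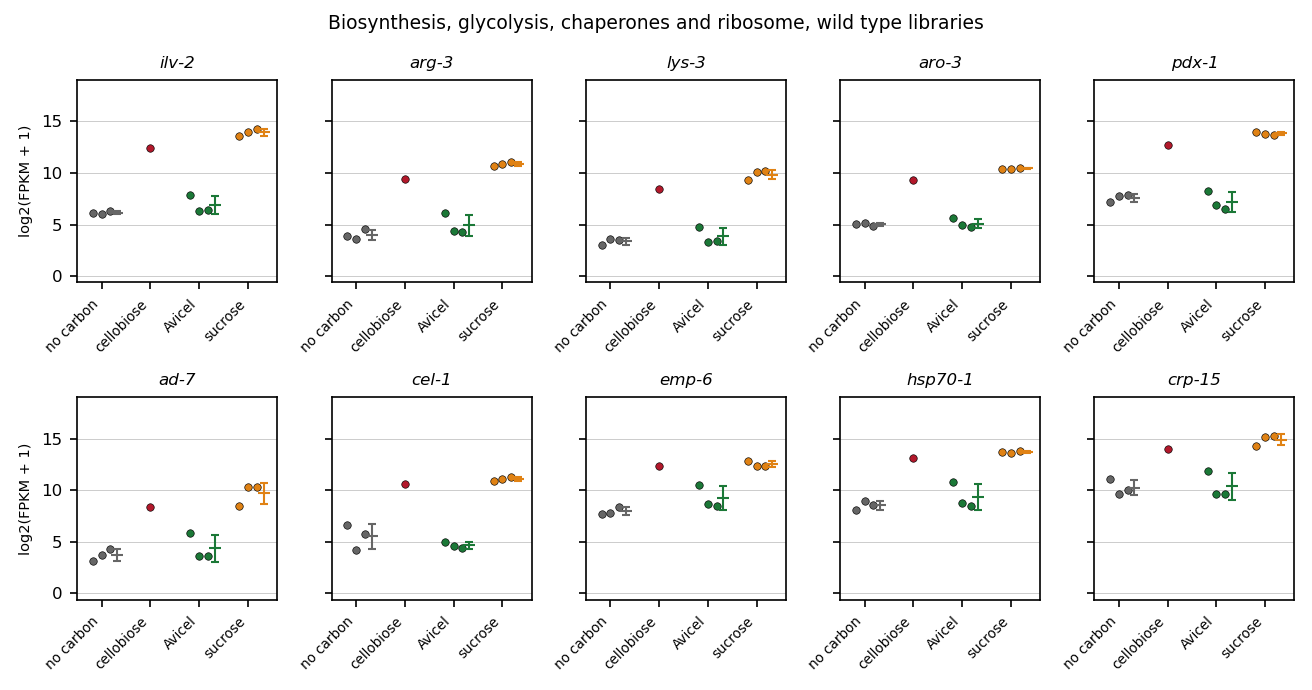
Levels of 10 genes for biosynthesis, glycolysis, chaperones and the ribosome are shown per wild type library as log2(FPKM + 1), with the mean and SD of each triplicate beside its points and one point for cellobiose. In all 10 panels the cellobiose point lies above every no carbon point and below the sucrose mean.

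Purine and pyrimidine synthesis genes also rose. Of 9 purine and pyrimidine genes 8 rose, the other being pyr-4 with 1239 FPKM on cellobiose and 1929.9, 568 and 579 on no carbon, which passed without no carbon replicate 1 (adjusted p = 0.01). The purine gene ad-7 had 322 FPKM against 7.57, 12.3 and 19.03 (log2 difference 4.62, SE 1.02, adjusted p = 0.0137), and ad-5 1841 against 83.8, 76.7 and 198 (log2 difference 4.07, SE 0.58, adjusted p = 0.00236). The calls on pyr-3 (adjusted p = 0.0239) and ad-3A (adjusted p = 0.0427) were the weaker ones, lost without no carbon replicate 1 or 3 (adjusted p up to 0.0579) and without any one of 6 of the 9 triplicate libraries or under median-of-ratios scaling (adjusted p up to 0.088). The thiamine synthesis gene nmt-1 was not on the list for vitamin B6 and thiamine and is given below with the most abundant transcripts. Of the 5 genes on that list 4 rose, all of them pdx genes, so the count does not speak for thiamine. They were led by the vitamin B6 synthesis gene pdx-1 (NCU06550, supercont10.4, 1608318 to 1609701) with 6862 FPKM against 143, 215 and 234 (log2 difference 5.14, SE 0.60, adjusted p = 0.00106). Its companion pdx-2 rose from 75.2, 91.3 and 74.1 to 371 FPKM (log2 difference 2.20, SE 0.30, adjusted p = 0.00178). The calls on pdx-3 (log2 difference 0.90, adjusted p = 0.0399) and pdx-4 (log2 difference 2.88, adjusted p = 0.0293) were not stable. That on pdx-3 was lost without any one of 7 of the 9 triplicate libraries or under quantile normalization (adjusted p up to 0.0942) and that on pdx-4 without no carbon replicate 1, 2 or 3 or without the filter on low values (adjusted p up to 0.0641), so that 2 of the 5 genes rose when any one of the no carbon libraries was left out.

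Fatty acid and sterol synthesis gave the highest list median, 4.22 log2 units over 5 genes, of which 4 rose. The fatty acid synthase gene cel-1 (NCU07308, supercont10.4, 4422512 to 4428535) had 1528 FPKM on cellobiose and 95.5, 17.7 and 52.7 on no carbon, a log2 difference of 5.06 (SE 0.72, adjusted p = 0.00229). The gene of the other synthase subunit, cel-2, had 1521 against 147, 34.2 and 104 FPKM (log2 difference 4.22, SE 0.68, adjusted p = 0.00379). Both stood somewhat below their sucrose means of 2193 and 1848 FPKM and well above their Avicel means of 24.6 and 42.1. The sterol gene erg-1 rose from 120.5, 209 and 82.3 to 2854 FPKM (log2 difference 4.47, SE 0.60, adjusted p = 0.00172), erg-4 also rose (log2 difference 2.30, SE 0.35, adjusted p = 0.0029), and erg-3 was not called (adjusted p = 0.301).

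Cytosolic ribosomal protein genes rose, but their calls were not stable. All 7 listed cytosolic ribosomal protein genes rose, for example crp-15 with 16217 FPKM on cellobiose and 2100.2, 816 and 1054 on no carbon (log2 difference 3.73, SE 0.90, adjusted p = 0.0195). The elongation factor genes tef-1, 88284 against 34398, 39019 and 42184 FPKM, and cot-3, 17230.0 against 8273, 6346 and 8164, were not called (adjusted p = 0.295 and 0.0891). The calls depended on single libraries, filter and scaling: of the 9 genes, 0 rose in the limma fit without no carbon replicate 3 (7 had an unadjusted p under 0.05) and 1 without replicate 2, 2 without the filter on low values and 4 under quantile normalization, where the median went from 2.94 to 2.21. The adjusted p of crp-15 became 0.0537 without replicate 3. In every ribosomal gene the cellobiose value nevertheless exceeded the highest no carbon value.

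Chaperone genes split by member. Of 10 heat shock protein genes 6 rose and none fell. The cytosolic chaperone gene hsp70-1 (NCU09602, supercont10.2, 79806 to 82656) had 9073 FPKM on cellobiose and 277, 501 and 378 on no carbon (log2 difference 4.60, SE 0.76, adjusted p = 0.00431), and hsp70-2 had 9748 against 284, 436 and 328 (log2 difference 4.82, SE 1.15, adjusted p = 0.0186). The mitochondrial chaperonin gene hsp60 rose from 72.1, 45.3 and 62.9 to 705 FPKM (log2 difference 3.56, SE 0.35, adjusted p = 0.000605). By contrast the small heat shock gene hsp30 had 141 against 155, 131 and 144 FPKM and hsp98 462 against 416, 359 and 578, with no call. In the endoplasmic reticulum, grp78 and erp38 were not called either, with log2 differences of 0.65 and 0.81 (adjusted p = 0.211 and 0.079).

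Mitochondrial genes divided by complex. Of 10 genes for the cytochrome chain and ATP synthase 8 rose, such as fes-1, the Rieske protein gene, with 2131 FPKM against 643, 999 and 576 (log2 difference 1.57, SE 0.33, adjusted p = 0.0109). Scaling mattered here, since quantile normalization left 2 calls of the 8 and the fits without no carbon replicate 1 or 3 left 5 each, and the call on the cytochrome c gene cyc-1, 3602 against 259.6, 855 and 176 FPKM (adjusted p = 0.0259), was lost without no carbon replicate 1 or 3 or in a fit to the 4 compared libraries alone (adjusted p up to 0.0631). Of 29 complex I genes 1 rose and 1 fell, both near the threshold, with log2 differences from -0.94 to 0.68 and a median of 0.04, or -0.42 under quantile normalization. Those calls were nuo49 (adjusted p = 0.0498), lost without any one of 7 of the 9 triplicate libraries or under 5 other alternatives (adjusted p up to 0.275), and nuo10.5 (adjusted p = 0.0492), lost without any one of 7 of the 9 triplicate libraries, with a pseudocount of 0.1 or without the filter on low values (adjusted p up to 0.113). Among alternative NADH dehydrogenases, which bypass complex I, nde-2 rose from 47.4, 52.8 and 38.2 to 721 FPKM (log2 difference 3.95, SE 0.44, adjusted p = 0.000907) and ndi-1 from 9.58, 7.04 and 6.80 to 71.3 (log2 difference 3.05, SE 0.73, adjusted p = 0.0184). The alternative oxidase gene aod-1 had 74.3, 846 and 38.8 FPKM in no carbon replicates 1, 2 and 3, with the cellobiose value of 760.0 inside that spread. Of 23 genes for import of proteins into mitochondria 11 rose and none fell, including tom40, the outer membrane channel gene, from 154, 197 and 165 to 747 FPKM (log2 difference 2.12, SE 0.29, adjusted p = 0.00208) and tim50 from 71.4, 80.0 and 74.5 to 307 (log2 difference 2.01, SE 0.24, adjusted p = 0.00108).

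**Figure D4:**
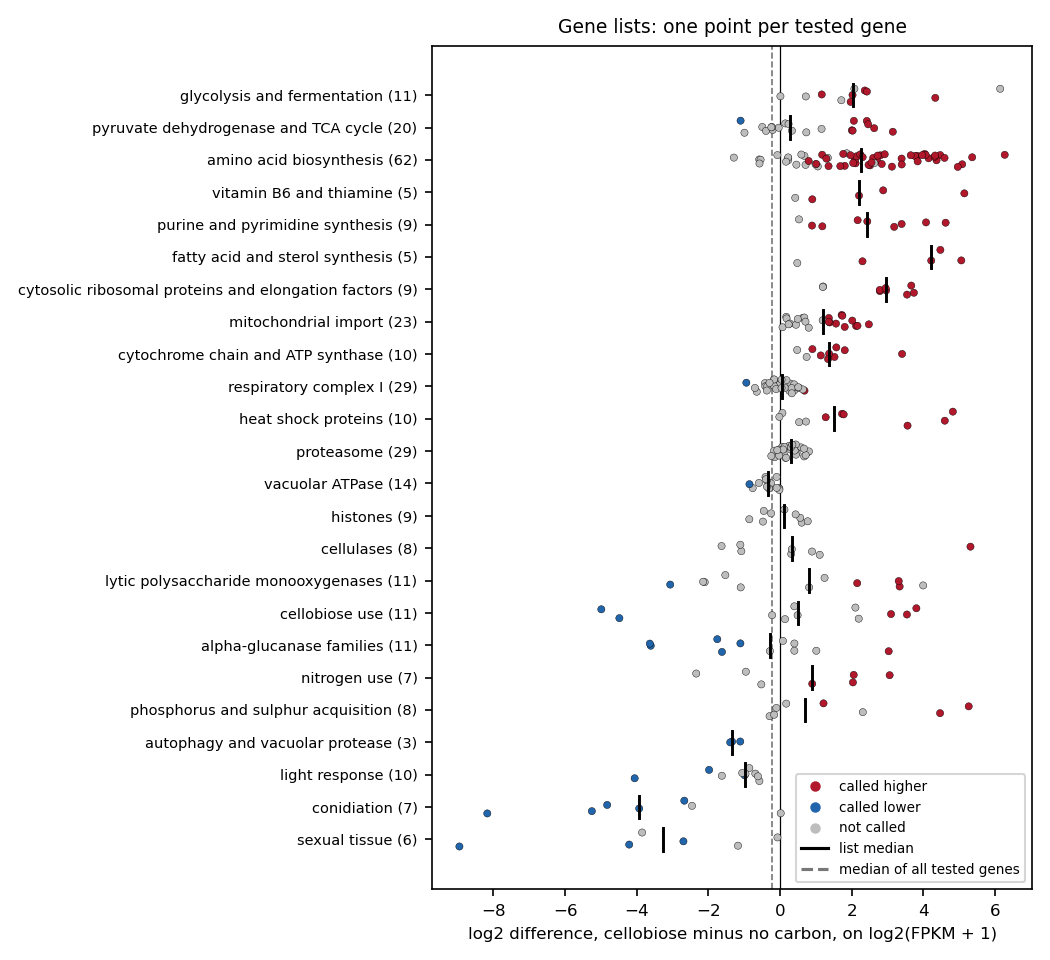
Each point is the log2 difference, cellobiose minus no carbon, of one tested gene in 24 of the lists, coloured by its call, with a bar at the list median and a dashed line at the median of all tested genes (-0.22). Amino acid, purine, vitamin, lipid and ribosomal lists lie to the right and conidiation and mating lists to the left. The complex I, histone and vacuolar ATPase lists have medians of 0.04, 0.12 and -0.34. The proteasome list, with a median of 0.30, lies mostly to the right of the dashed line.

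Conidiation genes were far lower on cellobiose. Of the 7 genes listed as markers of conidiating tissue 5 fell and none rose. Their summed level was 34379 FPKM on cellobiose against 384162, 345572 and 383106 in the no carbon libraries. Most of each sum came from ccg-1 and eas, at 15486 and 18527 FPKM on cellobiose, and eas was not called. The ccg-1 gene is also known as glucose-repressible, so its level, and with it the sum, is not a measure of conidiating tissue alone. The spore gene con-6 (NCU08769, supercont10.3, 5205041 to 5205927) had 10.8 FPKM on cellobiose and 1516, 5383 and 4879 on no carbon, a log2 difference of -8.17 (SE 1.25, adjusted p = 0.00308). Its no carbon mean was 362 times the cellobiose value, and the call held under every alternative. The genes con-8, 124 against 3029, 4498 and 7958 FPKM (log2 difference -5.25, SE 1.26, adjusted p = 0.0189), and con-10, 65.4 against 1399.9, 1850.5 and 2575 (log2 difference -4.83, SE 1.15, adjusted p = 0.0183), also fell, as did con-13 from 16.4, 26.4 and 43.1 to 3.32 (log2 difference -2.67, SE 0.50, adjusted p = 0.00718). The clock-controlled gene ccg-1, the most abundant transcript on no carbon, fell from 171706, 255469 and 301939 to 15486 FPKM (log2 difference -3.93, SE 0.96, adjusted p = 0.0206). On Avicel the con genes and ccg-1 lay between their no carbon and cellobiose levels on average, and on sucrose they were lowest.

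Not every conidiation marker fell. The hydrophobin gene eas, for the water-repellent coat of conidia, had 18527 FPKM on cellobiose and 206272, 78251 and 65514 on no carbon (log2 difference -2.46, SE 0.98, adjusted p = 0.0964) and was not called, though its cellobiose value lay below all 3. The eas difference passed without sucrose replicate 1, under quantile normalization or without the 2 shallowest libraries (adjusted p down to 0.0245). The regulator gene fl, which switches on conidiation, had 163 against 223, 94.0 and 198 FPKM (log2 difference 0.02, SE 0.49, adjusted p = 0.983). Without no carbon replicate 3 the list kept 2 calls, con-6 (adjusted p = 0.0118) and con-13 (adjusted p = 0.0149), while con-8, con-10 and ccg-1 had 0.0531, 0.052 and 0.0531. The call on ccg-1 was also lost under quantile normalization (adjusted p = 0.0508) and without the filter on low values (adjusted p = 0.068), and those on con-8 and con-10 with a pseudocount of 0.1 (adjusted p = 0.116 and 0.124). In bulk RNA, fewer conidiating cells and less of these transcripts per cell cannot be told apart.

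Mating genes fell too. Of 6 tested markers on the sexual tissue list 3 fell, and the summed level was 56.3 FPKM on cellobiose against 1391, 1884 and 1870.4 on no carbon. Most of each no carbon sum came from the single gene ccg-4. The pheromone precursor gene ccg-4 (NCU02500, supercont10.1, 2531837 to 2533391) had 1.66 FPKM on cellobiose and 1034, 1562 and 1409 on no carbon, a log2 difference of -8.95 (SE 0.94, adjusted p = 0.000692). The pheromone receptor gene pre-2 had 1.79 against 18.3, 14.4 and 18.99 FPKM (log2 difference -2.70, SE 0.40, adjusted p = 0.0026). The receptor gene pre-1, 5.33 against 94.0, 107 and 157 FPKM (adjusted p = 0.0482), passed narrowly and its call was lost without any one of 6 of the 9 triplicate libraries or under 4 other alternatives (adjusted p up to 0.108). The mating-type gene matA-1 had 12.3 FPKM against 173, 167 and 241 and was not called (log2 difference -3.85, SE 1.401, adjusted p = 0.0752) but passed without Avicel replicate 1 or sucrose replicate 1, in a fit to the 4 compared libraries alone, with a pseudocount of 10 or without the 2 shallowest libraries (adjusted p down to 0.000296). Of the defining markers, matA-2 was listed at 0 in all 4 libraries.

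**Figure D5:**
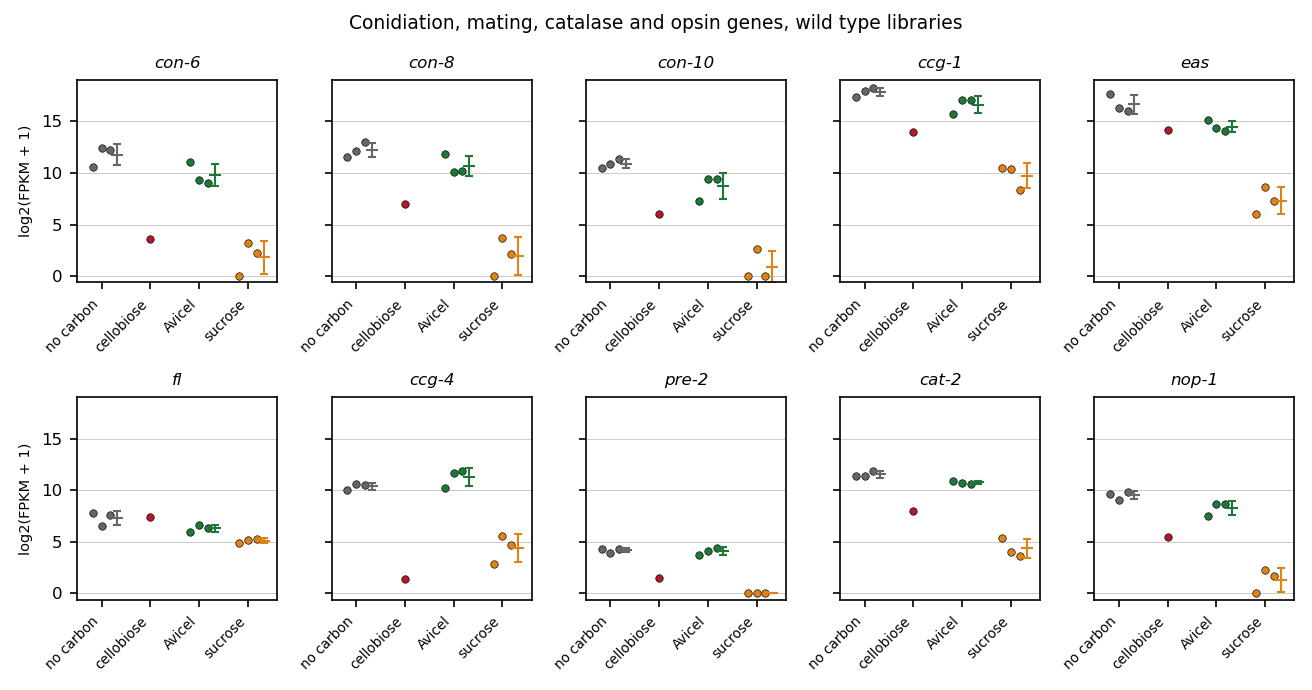
Levels of 10 conidiation, mating, catalase and opsin genes are shown per wild type library as log2(FPKM + 1), with the mean and SD of each triplicate beside its points. The cellobiose point lies below every no carbon point in all panels but that of fl, where it lies among them.

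Single genes of several other lists fell. The catalase-peroxidase gene cat-2 (NCU05770, supercont10.7, 487349 to 490318) had 260.0 FPKM on cellobiose and 2588, 2627 and 3828 on no carbon (log2 difference -3.51, SE 0.58, adjusted p = 0.00425), the only call among 6 catalase and superoxide dismutase genes, whose median was -0.13. The opsin gene nop-1 had 42.5 against 801, 529 and 894 FPKM (log2 difference -4.06, SE 0.82, adjusted p = 0.00967), lost with a pseudocount of 0.1 (adjusted p = 0.119). The light response gene wc-2 fell from 312, 345 and 366 to 171 FPKM (log2 difference -0.99, SE 0.18, adjusted p = 0.0067), while wc-1 was not called (limma log2 difference -0.62, adjusted p = 0.572). Of 10 light response genes 3 fell, the other being the carotenoid gene al-3, 289 against 1639, 659 and 1387 FPKM (adjusted p = 0.0145), whose call was lost in a fit to the 4 compared libraries alone (adjusted p = 0.0571). Without no carbon replicate 1 the count was 7 and the list median -1.64, against -0.98 with all libraries and -0.46 without replicate 3. The photoreceptor gene vvd had 1219, 5123 and 7316 FPKM in no carbon replicates 1, 2 and 3, so the no carbon libraries themselves differed in light genes, and 1829.7 on cellobiose.

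All 3 listed genes for autophagy and vacuolar proteolysis fell, though none of the calls was stable. The vacuolar protease gene pep4 had 3008 FPKM on cellobiose and 9527, 7115 and 7277 on no carbon (log2 difference -1.39, SE 0.38, adjusted p = 0.0302), lost without no carbon replicate 1 or 3 (adjusted p up to 0.0653). The autophagy kinase gene apg-1 had 112 against 354, 222 and 294 FPKM (log2 difference -1.34, SE 0.34, adjusted p = 0.0241), lost without no carbon replicate 1 or 3 (adjusted p up to 0.0611), and atg-8, for the autophagosome membrane, 2409 against 5546, 5516 and 4628 (log2 difference -1.11, SE 0.33, adjusted p = 0.0396), lost without any one of 6 of the 9 triplicate libraries or under median-of-ratios scaling (adjusted p up to 0.0796). In all 3 genes the cellobiose value lay below every no carbon value. Among 20 peroxin genes, for the peroxisomes in which fatty acids are burned, 2 fell and 1 rose, the clearest being pex11 from 1171, 1403 and 1298 to 382 FPKM (log2 difference -1.75, SE 0.33, adjusted p = 0.0073), a call lost with the highest transcript taken per gene (adjusted p = 0.0637).

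Several genes for nitrogen and phosphorus acquisition rose. The nitrite reductase gene nit-6 had 2599 FPKM on cellobiose and 225, 328 and 408 on no carbon (log2 difference 3.06, SE 0.74, adjusted p = 0.0194), one of 4 calls among 7 nitrogen genes. The glutamate dehydrogenase gene gdh-1, 516 against 4034, 2422 and 1839.7 FPKM, just missed a call in the other direction (log2 difference -2.34, SE 0.75, adjusted p = 0.0503) and passed as lower without Avicel replicate 1 or 3 or under 5 other alternatives (adjusted p down to 0.0096). The other calls, nit-3, nit-10 and nit-2, were lost without any one of 6 of the 9 triplicate libraries, with a pseudocount of 0.1 or without the filter on low values (adjusted p up to 0.0902), without no carbon replicate 1 or 3 (adjusted p up to 0.0569) and without any one of 6 of the 9 triplicate libraries or under 4 other alternatives (adjusted p up to 0.104). The phosphate permease gene pho-5 (NCU08325, supercont10.4, 2397017 to 2398793) had 164 FPKM against 2.42, 4.72 and 3.05 (log2 difference 5.26, SE 0.64, adjusted p = 0.00116), and pho-4, another phosphate permease gene, 197 against 9.61, 7.48 and 6.97 (log2 difference 4.46, SE 0.78, adjusted p = 0.00521). Both also exceeded the sucrose libraries, where pho-5 had 6.88, 18.8 and 24.7 and pho-4 27.2, 77.4 and 90.8 FPKM. The pho-4 gene body overlaps a neighbour by 154 bases. The alkaline phosphatase gene pho-2 rose from 34.1, 29.5 and 42.6 to 82.4 FPKM (adjusted p = 0.0239), lost without no carbon replicate 1 (adjusted p = 0.0504), and the regulator gene of this system, nuc-1, was not called (151 against 159.7, 178 and 170.4 FPKM).

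Cell wall genes moved singly. The chitinase gene chit-1 (NCU02184, supercont10.1, 938549 to 943577) had 1521 FPKM on cellobiose and 83.5, 15.1 and 12.6 on no carbon (log2 difference 5.85, SE 0.87, adjusted p = 0.00268), while of the other 8 tested chitinase genes only gh18-7 was called, lower, and that call was lost without any one of 7 of the 9 triplicate libraries, with a pseudocount of 0.1 or without the filter on low values (adjusted p up to 0.103). Among 23 cell wall protein genes 5 rose and 1 fell, with a median of 0.20 that turned to -0.30 under quantile normalization, and without sucrose replicate 1 8 rose and 4 fell. The cell wall genes ncw-2, 3818 against 273, 222 and 128 FPKM (log2 difference 4.26, SE 0.46, adjusted p = 0.000806), and acw-3, 13249 against 1892, 2068 and 879 (log2 difference 3.13, SE 0.49, adjusted p = 0.00338), showed the largest differences called. None of the 5 chitin synthase genes was called by limma (0 had an unadjusted p under 0.05), with log2 differences from -0.40 to 0.60.

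Several lists held few calls or none. None of 29 proteasome genes was called by limma (1 had an unadjusted p under 0.05), with differences from -0.25 to 0.81 and a median of 0.30 log2 units. The difference was positive in 22 of the 29. Without the 2 shallowest libraries 10 of them rose, in a fit where 1796 of all tested genes rose. Of 14 vacuolar ATPase genes 1 fell, vma-8 (adjusted p = 0.033), lost without any one of 5 of the 9 triplicate libraries (adjusted p up to 0.0812), and the median was -0.34. None of 9 histone genes and none of 7 quinate cluster genes was called by limma (1 and 1 had an unadjusted p under 0.05), the histone median being 0.12 and -0.48 under quantile normalization and the quinate median -0.78.

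The largest single differences, among genes with a group mean of at least 10 FPKM, were partly in genes without a symbol. NCU01633 (supercont10.2, 2888176 to 2890364) had 22147 FPKM on cellobiose and 117, 61.9 and 78.0 on no carbon, a log2 difference of 8.05 (SE 1.34, adjusted p = 0.00435). Its sucrose mean was 4084 ± 166 FPKM and its Avicel mean 494 ± 406, so cellobiose was the highest medium. NCU03561 had 546 FPKM against 1.76, 3.25 and 2.77 (log2 difference 7.27, SE 0.93, adjusted p = 0.00137) and NCU03293 14374 against 118, 147 and 64.4 (log2 difference 7.10, SE 0.53, adjusted p = 0.000273). The neighbours NCU06911 and NCU06912, on one contig at positions 3509330 and 3506278, both rose, by 5.77 and 6.30 log2 units (SE 0.62 and 1.26, adjusted p = 0.000782 and 0.00936). The 15 largest rises also held ilv-2, chit-1, arg-3 and eth-1, the S-adenosylmethionine synthetase gene, with 4039 FPKM against 68.8, 74.5 and 88.6 (log2 difference 5.70, SE 0.59, adjusted p = 0.000651). The rest, NCU08720, NCU05259, NCU09506, NCU05826, NCU09497 and NCU00963, rose by 5.57 to 6.19 log2 units.

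Among the 15 largest falls, 5 genes were listed at 0 on cellobiose. NCU11831 was at 0 against 529, 1002 and 277 FPKM on no carbon (adjusted p = 0.00137), and NCU10591 at 0 against 242, 203 and 259.6 (adjusted p = 0.000431). NCU10107 and NCU01853 were at 0 as well, against 163, 58.0 and 226 and 123, 25.6 and 265 FPKM. NCU08491 had 3.83 FPKM against 1238, 1299.6 and 1568 (log2 difference -8.14, SE 0.23, adjusted p = 1.41e-06). The neighbours NCU08428 and NCU08429, at 4034929 and 4037480 on one contig, had 8.39 against 2238, 1120.2 and 3083 and 1.21 against 301, 639.6 and 578 FPKM, and both fell (adjusted p = 0.00095 and 0.000639). The falls of NCU06895, NCU07718, NCU05069, NCU01231 and NCU08037 ran from -6.59 to -7.93 log2 units. NCU04169, 0 on cellobiose and 19.8, 1363 and 419.9 on no carbon, was the one of the 15 whose call was lost with a library left out, without no carbon replicate 3, in a fit to the 4 compared libraries alone, with a pseudocount of 10 or without the filter on low values (adjusted p up to 0.0699).

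The most abundant transcripts differed less than these. On cellobiose the 5 highest were tef-1, NCU06110, nmt-1, ccg-16 and gpd-1, and on no carbon ccg-1, eas, ccg-16, tef-1 and NCU05498. The thiamine synthesis gene nmt-1 had 56923 FPKM on cellobiose and 1249.7, 9831 and 2563 in no carbon replicates 1, 2 and 3 (log2 difference 4.17, SE 1.08, adjusted p = 0.0254), a call lost without no carbon replicate 3, in a fit to the 4 compared libraries alone or under quantile normalization (adjusted p up to 0.0665). The clock-controlled gene ccg-16 had 55335 against 30387, 64565 and 57228 FPKM and was not called (adjusted p = 0.834), and NCU05498 had 13302 against 30659, 34395 and 33680.5 (adjusted p = 0.613).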

How the data were processed

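Polyadenylated RNA was sequenced on an Illumina platform after zinc fragmentation and random priming, per the labels' protocols. The values deposited by the authors are FPKM, per transcript in the triplicate libraries and per gene in the cellobiose library. TopHat and Cufflinks 0.9.3 are named in the submitters' processing notes, and the genome build is not given in the sources used here. Depth was taken as transcript length times the coverage deposited for the triplicate libraries. Transcript rows were summed to NCU identifiers. Read numbers per gene were not recoverable, hence no counting error or detection floor is attached to any value. NC12 gene records supplied symbols for 1106 of 9733 identifiers.

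Genes with FPKM of at least 1 on cellobiose or in 2 no carbon libraries were tested with limma 3.58.1 (R 4.3.3, trend) on log2(FPKM + 1) with Benjamini-Hochberg adjustment. P-values measure the spread between the labelled biological replicates on no carbon, Avicel and sucrose, pooled over these media. No spread on cellobiose, with its 1 library, enters them. On simulated data for this comparison (8845 genes), the test found 54 of the 100 genes shifted by 2 log2 units, 83 of the 100 shifted by 4, and 3 unchanged genes. The simulated cellobiose library had the same spread as the others and no deposit difference, and most genes were left unchanged. The simulation therefore cannot gauge false calls in the real comparison. Text names go to the 15 largest called differences in each direction with a group mean of at least 10 FPKM and a cellobiose value outside the no carbon range, to the 5 highest transcripts of each medium, and to members of 38 lists by role. Comparison and lists were chosen with earlier results of these data known. Alternatives covered the libraries fitted, pseudocount, filter, scaling, transcript handling, and each triplicate library left out.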

Additional observations from a re-analysis of the deposited data

How the results depend on the processing

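Counts kept within 1.5 times of the reported 985 higher and 1306 lower under most alternatives. With single libraries left out, all calls ran from 1367 to 3215, higher calls from 628 to 1341 and lower calls from 739 to 1972, the fewest without no carbon replicate 3. Among listed genes, 138 higher and 33 lower in the reported fit, the same omissions gave 110 to 158 higher and 19 to 51 lower. Without the 2 shallowest libraries, Avicel replicate 1 and sucrose replicate 1, a choice made after seeing the data, 4551 genes were called, 1796 higher and 2755 lower, with 68 listed genes lower. A rule without a test, a fold of at least 2 outside the no carbon range, took 3615 genes, 2236 of them lower, and 54 listed genes lower. The median difference over all genes, -0.22 as reported, was -0.17 with a pseudocount of 10 and under median-of-ratios scaling, -0.15 without the filter and with an FPKM filter of 10, and -0.092 under quantile normalization, a shift of 0.13.

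Of 123 called genes named in the text, 86 kept their call under all 19 alternatives. The direction reversed once, for fba at -0.19 under quantile normalization, where the cause was not tested. No paired analysis was possible because the single cellobiose library carries no replicate number. With 1 cellobiose library, culture-to-culture spread on that medium is unmeasured, its depth is unknown, and low genes listed at 0 there cannot be told from undetected ones.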

Other observations

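Cellobiose was the highest of the 4 wild type media for a small set of genes. Of 8845 tested genes, 54 stood at least 2-fold above all 9 Avicel, sucrose and no carbon libraries on the log2(FPKM + 1) scale, and 3 stood at least 2-fold below all 9. A gene could enter the test on its cellobiose value alone, so these counts are not to be set against each other. Some of the 54 were low everywhere, such as NCU05567 with 9.60 FPKM on cellobiose and 0 in the next highest library. With 1 cellobiose library these positions are descriptions without a test, the genes were picked by their values, and the library's later deposit cannot be told apart from its carbon source.

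NCU05627 led this set with 4984 FPKM on cellobiose, where the next highest wild type library had 338 FPKM. NCU00399 had 3568 FPKM, with 372 in the next highest library. The clock-controlled genes ccg-13 and ccg-14 had 10789.6 and 8700.4 FPKM, with 1584 and 1531 in the next highest library. The cell wall protein genes ncw-3 and ncw-5 had 10399.6 and 428 FPKM, with 2815 and 163 in the next highest library. Among the genes with a described role, gla-1, inv, hgt-1, cre-1, pho-4, pho-5 and chit-1 were also in the set. The 2 phosphate permease genes, pho-4 and pho-5, were the only members of the phosphorus and sulphur list there.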
